A study of Rattus norvegicus with 18 samples.

Results

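Brain RNA of rats labelled as CLCF1 knock-down was compared with that of wild-type rats after carbon monoxide (CO) inhalation in both. The comparison took 6 CLCF1 libraries against 6 CO libraries, 12 of the 18 RNA-seq libraries of the series, chosen by the column names of the deposited gene count table. Of the 34873 genes listed, 16581 passed the filter on low counts and were tested. The other 6 libraries, NC, came from wild-type rats with no treatment named and give the level without CO. Per the labels, both exposed groups inhaled CO at 1000 ppm (40 min), followed by 3000 ppm (20 min), and the model counted as successful with confusion and carboxyhaemoglobin above 60%. Tissue is given as brain, with no region, age, sex, strain or time of sampling. The knock-down is given as a genotype. The series text describes lentiviral short hairpin RNAs against Clcf1, tested in bone marrow-derived macrophages, and the return of such macrophages through a vein to rats given liposomes that held chloroquine phosphate. The labels do not say which animals received liposomes, macrophages or a control hairpin, so an effect of lower Clcf1 and an effect of that handling cannot be told apart here. Nor do they say that the libraries of a group are separate animals, so p-values measure the spread between libraries, which may be technical.

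Libraries 1 and 2 of each group differed in kind from libraries 3 to 6, so values, changes and list medians are given for both where they are printed, while counts of genes that passed are over 6 libraries unless a subset is named. In CO, 14473 genes had no count in libraries 1 and 2, and 0 of these had a count in any of libraries 3 to 6. In CLCF1 the numbers were 14517 and 0. In the other direction, 647 of the 15120 genes at 0 in CO libraries 5 and 6 did have a count in library 1 or 2, and 445 of 14962 did in CLCF1. Total counts of libraries 1 and 2 were 16.9 and 15.5 M in CO and 17 and 20.0 M in CLCF1, with means of 16.2 and 18.5 M. Libraries 3 to 6 lay around those means, at 16 to 16.3 M and 18.1 to 18.9 M. For genes with a mean count above 100 in libraries 1 and 2, log2 deviations of libraries 3 to 6 from that mean were compared between libraries. They correlated at 0.064 to 0.11 in CO and 0.0058 to 0.051 in CLCF1. These deviations are all taken from the same mean and so share its error, and a low correlation is not a sign of independence. Each of libraries 3 to 6 lay between libraries 1 and 2 in 35 to 36.1% of these genes in CO. In CLCF1 the share was 48.4 to 48.8%. Brain markers were present throughout, with the 5 neuron markers summing to 3400 to 5000 CPM (counts scaled to library size) over the 18 libraries. Whether libraries 3 to 6 are independent samples was not tested, and p-values over 6 libraries count them as such.

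Clcf1 (cardiotrophin-like cytokine factor 1) is a secreted cytokine of the interleukin 6 family. It binds the receptor Cntfr together with the signalling chains Lifr and Il6st (gp130), and acts through Jak kinases and Stat3, whose target Socs3 feeds back on the receptor. Immediate early genes are the first genes a cell transcribes after a stimulus, without new protein synthesis. In neurons they are switched on by activity through the transcription factor CREB, which binds the cAMP response element (CRE), and through serum response factor, which binds the CArG box. Carbon monoxide binds haemoglobin and so lowers oxygen delivery to the brain, where hypoxia targets, stress hormones and heat shock proteins are among the responses known.

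Of the immediate early genes that were lower in CLCF1, 6 hold one of these elements within the 300 bases taken, 250 before and 50 after the start, and the promoters of 4 are shown as examples. They are RefSeq sequences of the rat build GRCr8, 5′ to 3′ on the gene's strand, with the CRE (TGACGTCA) or the CArG box in capitals. The element begins 124 bases before the start in Dusp1, 51 in Maff and 66 in Plk2, each a CRE, and 83 in Egr2, a CArG box. The other two, not printed, are Jund, with a CRE 221 bases before the start, and Egr1, with CArG boxes at 105 and 83.
Dusp1 (chr10:17184603-17184902, plus strand): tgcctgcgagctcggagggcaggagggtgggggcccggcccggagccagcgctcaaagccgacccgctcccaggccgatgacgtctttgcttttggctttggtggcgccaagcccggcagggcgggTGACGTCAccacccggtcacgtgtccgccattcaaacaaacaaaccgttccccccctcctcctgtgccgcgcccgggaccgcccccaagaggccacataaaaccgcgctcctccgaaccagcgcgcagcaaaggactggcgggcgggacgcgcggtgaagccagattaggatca
Maff (chr7:112792537-112792836, plus strand): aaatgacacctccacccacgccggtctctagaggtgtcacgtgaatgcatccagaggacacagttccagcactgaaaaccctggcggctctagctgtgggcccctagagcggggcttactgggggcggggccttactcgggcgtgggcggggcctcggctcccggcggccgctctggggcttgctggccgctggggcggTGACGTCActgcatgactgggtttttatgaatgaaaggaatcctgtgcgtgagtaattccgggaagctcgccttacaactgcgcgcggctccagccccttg
Plk2 (chr2:43702286-43702585, plus strand): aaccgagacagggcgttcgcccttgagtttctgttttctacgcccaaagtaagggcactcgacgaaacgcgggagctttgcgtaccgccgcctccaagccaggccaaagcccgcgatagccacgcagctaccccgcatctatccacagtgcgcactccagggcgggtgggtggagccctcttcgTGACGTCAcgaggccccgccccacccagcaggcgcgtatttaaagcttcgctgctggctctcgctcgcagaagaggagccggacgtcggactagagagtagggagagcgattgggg
Egr2 (chr20:21054392-21054691, minus strand): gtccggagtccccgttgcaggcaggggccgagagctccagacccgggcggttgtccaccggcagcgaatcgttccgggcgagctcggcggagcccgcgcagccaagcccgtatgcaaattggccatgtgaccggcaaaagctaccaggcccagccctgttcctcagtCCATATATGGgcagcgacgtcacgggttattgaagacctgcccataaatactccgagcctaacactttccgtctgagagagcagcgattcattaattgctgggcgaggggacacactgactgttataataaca
Of the 36 immediate early genes tested, 26 had a promoter entry. The CRE was found in 5 of these 26 (19.2%), against 329 of 10566 tested genes with an entry (3.11%) and 549 of 27457 genes of the whole reference (2.0%). Of the 16 with an entry that were lower in CLCF1, 4 held it (25.0%). The CArG box was found in 4 of 26 (15.4%), against 145 of 10566 (1.37%) and 485 of 27457 (1.77%), and 2 of the 16 that were lower held it (12.5%). The AP-1 site TGANTCA was found in 1 of 26 (3.85%), against 5.49% of tested genes, and the NF-kB site in 4 of 26 (15.4%), against 10.7%. Both strands were searched, a gene counted once if any of its promoters held the motif, and none of the 4 motifs contains another. These are letter matches and not measured binding.

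Clcf1, the targeted gene (chromosome 1, 219468675 to 219472654, plus strand, as the count table gives it, with no build named), was at 5.26 and 6.38 CPM in CO libraries 1 and 2 and 5.04 to 7.50 in CO libraries 3 to 6, against 0.119 and 0.0487 and 0 to 0.161 in the CLCF1 libraries. Every CLCF1 library lay below every CO library, and the NC libraries, at 0.0561 to 0.324 CPM, were also below every CO library. CPM is the read count divided by the TMM-scaled library total in M, the unit of the totals above. On the log2 scale the difference, CLCF1 minus CO, was -6.67 ± 0.51 (SE) over 6 libraries a group (adjusted p = 9e-07, edgeR) and -6.05 in libraries 1 and 2 alone, where it did not pass. Changes given below without library values carry square brackets with the same quantity in libraries 1 and 2 and then in libraries 3 to 6. A two-sided exact permutation test of log2 CPM gave p = 0.00216, the smallest that 6 against 6 libraries can give. The position of the hairpin targets in the transcript is not in the labels.

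The receptor genes did not pass. Cntfr, the receptor that binds the ligand, differed by -0.10 ± 0.14 [-0.14, -0.09] and Lifr, a signalling chain, by -0.05 ± 0.48 [0.46, -0.24]. Il6st, the shared signalling chain, was at 15.3 and 29 CPM (11.3 to 26 in libraries 3 to 6) in CO and 16.8 and 44.5 (15.9 to 61.8) in CLCF1, a difference of 0.89 ± 0.31 (adjusted p = 0.051, edgeR). Socs3, the feedback inhibitor of Stat3 signalling, was at 5.50 and 7.48 CPM in CO libraries 1 and 2 and 4.73 to 6.36 in CO libraries 3 to 6, against 1.07 and 1.41 and 0.217 to 0.861 in the CLCF1 libraries. All 6 CLCF1 libraries were below all 6 CO libraries, and Socs3 fell by 2.99 ± 0.43 on the log2 scale (adjusted p = 0.00046, edgeR; -2.39 in libraries 1 and 2). NC, at 1.26 to 5.34 CPM, overlapped both groups. Of the 19 genes tested in the list of Clcf1-related ligands, receptors and JAK-STAT genes, 3 rose and 2 fell, against 8.63% and 8.34% of all genes tested. Those that rose were Tyk2, a Jak kinase, by 0.77 ± 0.17 [0.55, 0.89], Pias3, an inhibitor of Stat3, by 0.82 ± 0.23 [0.46, 1.03], and the related ligand Ctf1, by 1.31 ± 0.40 [0.92, 1.49]. The Pias3 call was lost when CO library 4 was left out, and the Ctf1 call when any 1 of CO libraries 1, 4 and 6 and CLCF1 libraries 3, 4 and 5 was, so that 1 of the list rose without CO library 4.

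Over all genes tested, 1431 were higher in CLCF1 (8.63%) and 1383 lower (8.34%) at an adjusted p under 0.05 (edgeR), and the median log2 fold change was 0.002. The list counts below are to be read against these shares. An absolute change of at least 2-fold was passed by 925 of the higher and 543 of the lower genes. In libraries 1 and 2 alone, 8 of 16820 genes passed (0.0476%), 2 higher and 6 lower, while 817 (4.86%) had an unadjusted p under 0.05 and DESeq2 called 34 higher and 70 lower. The 8 were the immediate early genes Fos, Fosb, Egr2 and Nr4a3, the feedback gene Errfi1, the water channel Aqp1, Fam131a and the unnamed locus LOC100911372. Of the 2814 genes called over 6 libraries, 2782 had the same fitted direction in libraries 1 and 2, and in 2040 (72.5%) those libraries did not overlap between the groups. Libraries 1 and 2 were part of the fit that made these calls, so neither count is an independent check. Among all genes tested, libraries 1 and 2 were both higher in CLCF1 for 16.6% and both lower for 14%. The plot of list medians sets the gene lists side by side.

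**Figure D1:**
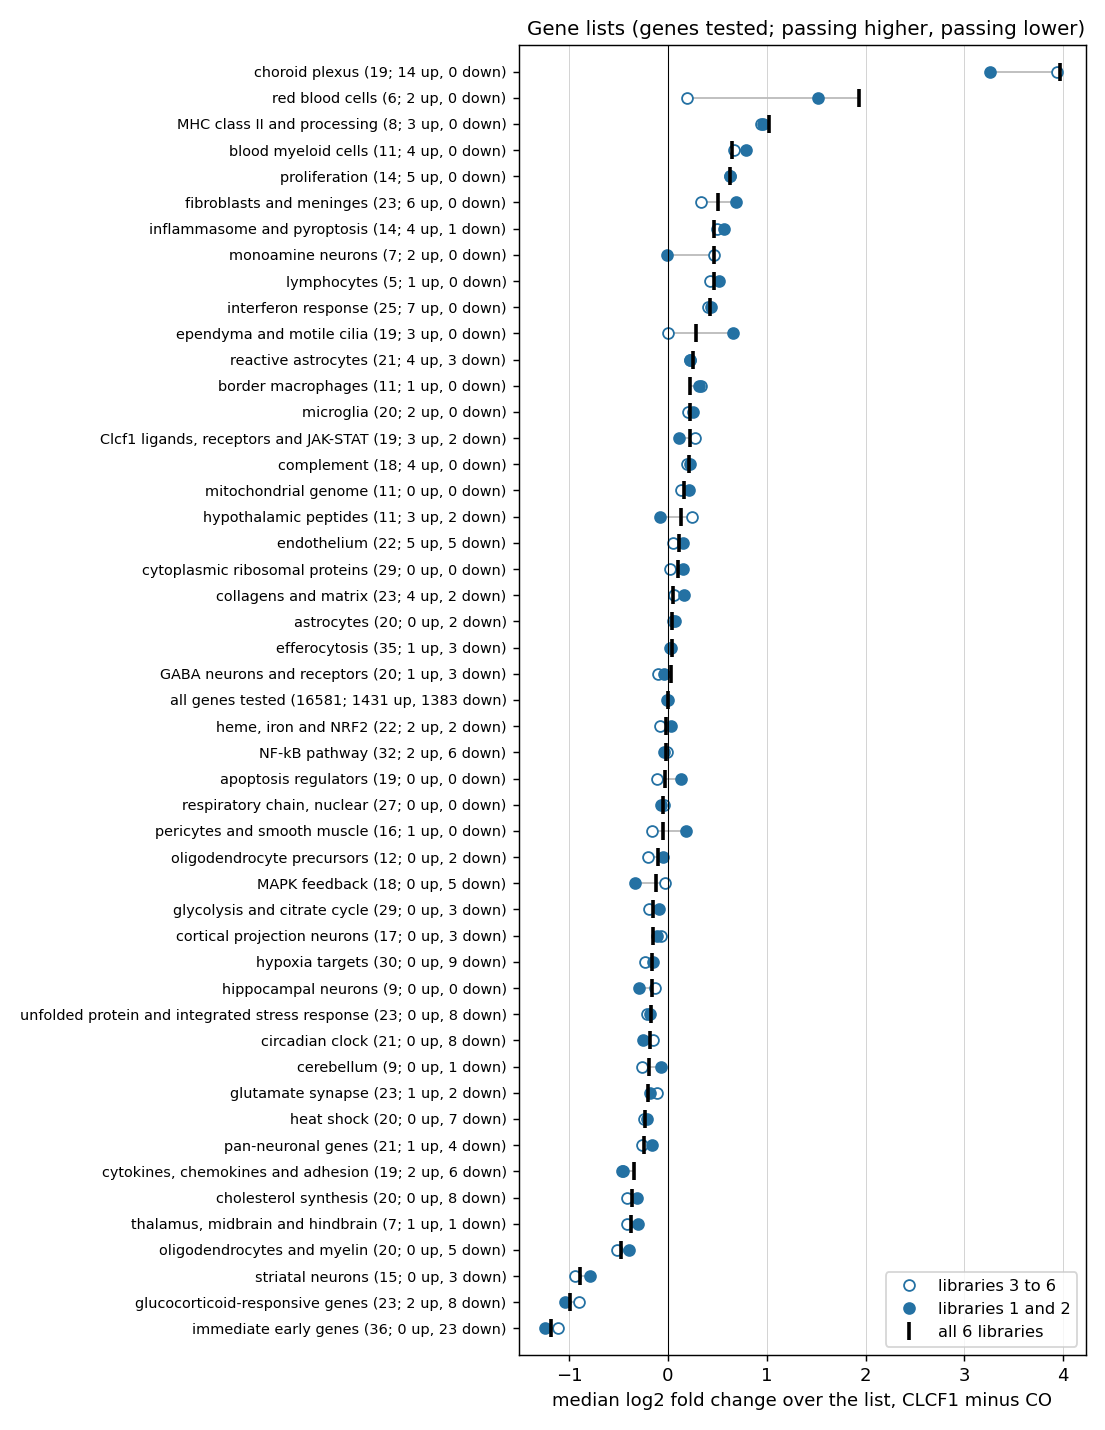
Median log2 fold change, CLCF1 minus CO, of each gene list (x axis) over all 6 libraries (ticks), libraries 1 and 2 (filled) and libraries 3 to 6 (open), with genes tested and genes passing higher (up) or lower (down) beside each name. Immediate early genes lie lowest, at -1.18, and choroid plexus genes highest, at 3.96, with all genes tested at 0.002.

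Immediate early genes were lower in the CLCF1 libraries. Of 36 tested, 23 fell (63.9%) and 0 rose, and the median log2 fold change was -1.18 over 6 libraries, -1.24 in libraries 1 and 2 and -1.12 in libraries 3 to 6. In libraries 1 and 2, 30 of the 36 did not overlap and were lower in CLCF1, against 14% of all genes, and 0 were higher. Of the 23, 21 were among those 30, the exceptions being Npas4 and Jund, and the Jund call was lost when either CLCF1 library 2 or 6 was left out. Fitted on libraries 1 and 2 alone, 4 passed with edgeR and 17 with DESeq2.

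Fos, a subunit of the AP-1 transcription factor, was at 179.9 and 125 CPM in CO libraries 1 and 2 and 111 to 261 in CO libraries 3 to 6, against 17.3 and 27.2 and 0.596 to 26.4 in the CLCF1 libraries. The highest CLCF1 library was below the lowest CO library, and NC ranged from 27.1 to 98 CPM. The change was -3.54 ± 0.59 on the log2 scale (adjusted p = 0.0011, edgeR), and -2.79 in libraries 1 and 2, where Fos also passed. Fosl2, another AP-1 subunit, was at 14.5 and 8.64 CPM in CO libraries 1 and 2 and 12.5 to 13.5 in CO libraries 3 to 6, against 0.775 and 2.63 and 0.326 to 3.20 in the CLCF1 libraries, again without overlap, with a change of -3.19 ± 0.61. Jun, their partner, fell by 1.23 ± 0.30 [-0.98, -1.34] with overlapping libraries 3 to 6.

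Egr2, a zinc finger transcription factor, was at 27.9 and 22 CPM in CO libraries 1 and 2 and 14 to 33 in CO libraries 3 to 6, against 3.52 and 2.68 and 0.922 to 3.28 in the CLCF1 libraries. Groups did not overlap, and the change of -3.14 ± 0.30 had an adjusted p of 1.9e-05 (edgeR). CLCF1 was also below NC here, which ranged from 13.7 to 36.1 CPM. Egr1 changed by -1.38 ± 0.17 [-1.35, -1.40], Egr4 by -2.61 ± 0.57 [-2.32, -2.80] and Egr3 by -0.87 ± 0.21 [-0.57, -1.05], each without overlap.

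The Nr4a genes, orphan nuclear receptors, all fell. Nr4a3 was at 68.1 and 56.7 CPM in CO libraries 1 and 2 and 47.8 to 93.1 in CO libraries 3 to 6, against 11.3 and 10.9 and 0.431 to 7.16 in the CLCF1 libraries. In NC it ranged from 1.23 to 13.9 CPM, so both CO libraries 1 and 2 and CO libraries 3 to 6 stood above NC and CLCF1. Its change was -3.76 ± 0.67 (adjusted p = 0.0015, edgeR), and -2.50 in libraries 1 and 2, where it passed as well. Nr4a1 was at 279 and 132 CPM (101 to 185 in libraries 3 to 6) in CO and 24 and 61.1 (11.1 to 31.8) in CLCF1, a change of -2.54 ± 0.41. Nr4a2 changed by -2.70 ± 0.56 [-2.07, -3.13], and CO library 5 was its highest.

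Dusp1, a phosphatase that switches off MAP kinases and one of the CRE promoters shown, was at 112 and 128 CPM in CO libraries 1 and 2 and 86.1 to 167 in CO libraries 3 to 6, against 30.2 and 40.4 and 7.80 to 39.9 in the CLCF1 libraries. All CLCF1 libraries were below all CO libraries and below NC (50.2 to 125 CPM), and the change was -2.10 ± 0.31 (adjusted p = 0.00048, edgeR). Maff, a small Maf transcription factor, changed by -1.60 ± 0.44 [-1.32, -1.81], and Plk2, a kinase of active synapses, by -0.85 ± 0.17 [-0.54, -1.03]. Gadd45b, a growth arrest and DNA damage response gene, changed by -2.03 ± 0.39 [-1.62, -2.27], and the transcription factor Atf3 by -2.54 ± 0.47 [-3.09, -2.32]. None of these 4 overlapped in libraries 1 and 2 or in libraries 3 to 6.

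The 13 members that did not pass were not all alike. Fosb was at 121 and 90.0 CPM in CO libraries 1 and 2 and 50.2 to 135 in CO libraries 3 to 6, against 4.35 and 7.45 and 0.0538 to 68.2 in the CLCF1 libraries. Libraries 1 and 2 were far apart, at -4.17 on the log2 scale, and passed on their own, whereas libraries 3 to 6 overlapped and the change over 6 libraries, -2.44 ± 0.86, had an adjusted p of 0.058 (edgeR). Junb, a partner of Fos, was at 240.4 and 134 CPM (124 to 187 in libraries 3 to 6) in CO and 70.0 and 63.6 (28.9 to 321) in CLCF1. Zfp36, which destabilises cytokine mRNA, was at 23.1 and 37.1 CPM (17.2 to 34.9 in libraries 3 to 6) in CO and 6.79 and 6.57 (1.88 to 26.3) in CLCF1. In both, CLCF1 libraries 1 and 2 lay below CO libraries 1 and 2, while libraries 3 to 6 overlapped. Btg2 was the single member with a fitted change above 0, 0.09 ± 0.36 [-0.58, 0.43]. The 5 neuron markers summed to 4400 and 5000 CPM in CO libraries 1 and 2 and 4460 and 4010 in CLCF1, with libraries 3 to 6 at 4530 to 4950 and 4060 to 4950, and 0 of 5 passed. In bulk RNA, fewer cells of a type and less RNA per cell cannot be told apart.

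**Figure D2:**
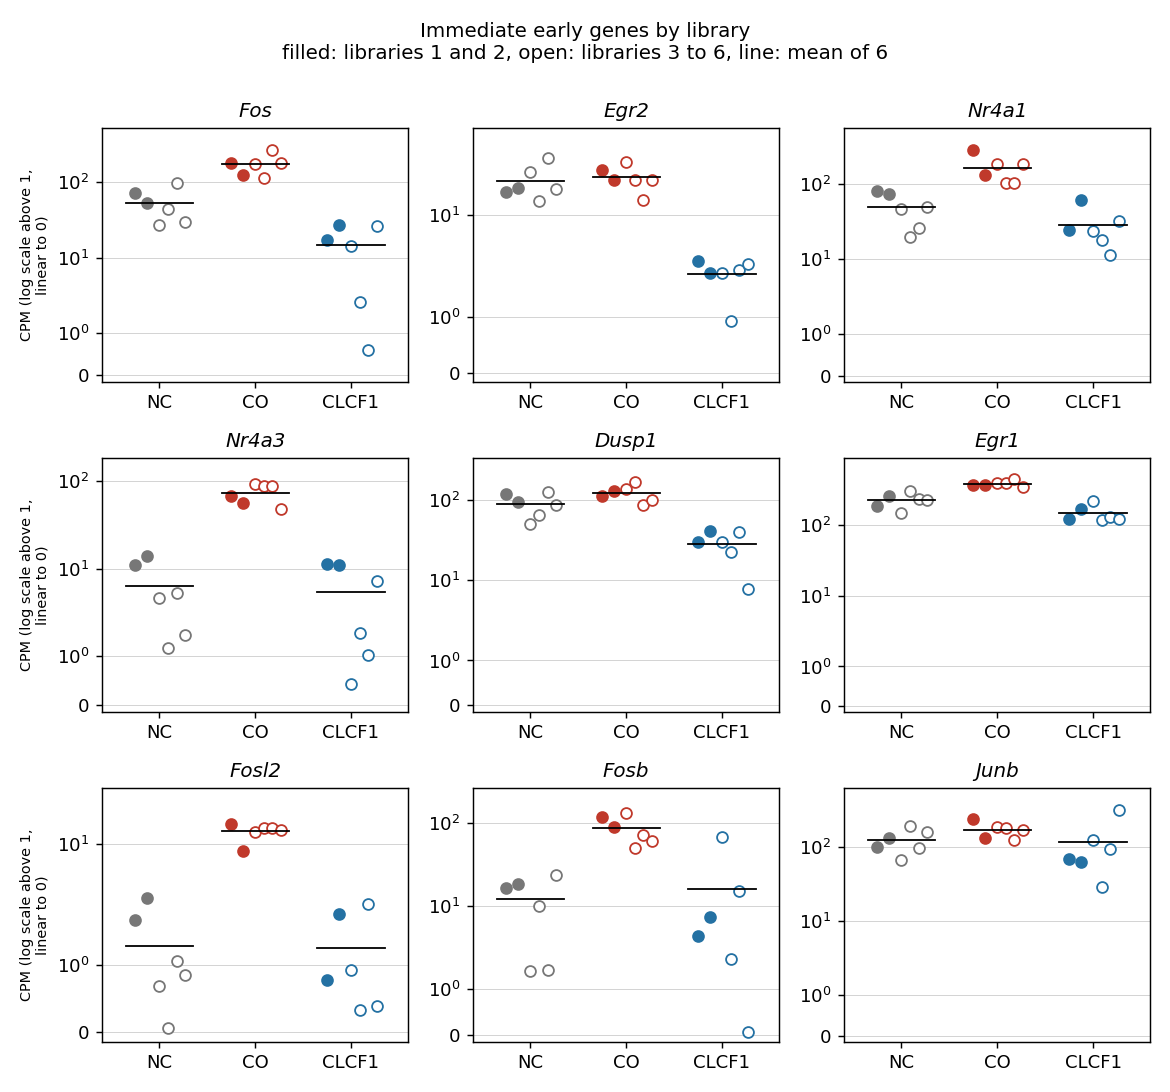
CPM (y axis, log scale above 1) of 9 immediate early genes in each library of NC, CO and CLCF1 (x axis), with the mean of 6 as a line. Fos, Egr2, Nr4a1, Nr4a3, Dusp1, Egr1 and Fosl2 do not overlap between CO and CLCF1, while Fosb and Junb overlap through libraries 3 to 6.

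Mir132, a microRNA gene whose transcription is known to depend on CREB, was among the 12 largest falls. Its mature products are shown with the seed, bases 2 to 8, in capitals (RefSeq, GRCr8).
rno-miR-132-3p (chr10:60522091-60522112, plus strand): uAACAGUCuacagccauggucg
rno-miR-132-5p (chr10:60522055-60522076, plus strand): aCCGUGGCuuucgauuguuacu
Reads over the Mir132 gene were at 3.05 and 1.61 CPM in CO libraries 1 and 2 and 1.32 to 5.34 in CO libraries 3 to 6, against 0.358 and 0.292 and 0 to 0.217 in the CLCF1 libraries. They did not overlap, NC ranged from 0.281 to 2.13 CPM, and the change was -4.29 ± 0.68 (adjusted p = 0.00075, edgeR; -2.83 in libraries 1 and 2). An mRNA library counts the precursor transcript and not the mature microRNA.

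MAP kinase feedback genes, which damp the signal that induces immediate early genes, held 5 of 18 that fell and 0 that rose, with a median of -0.12 [-0.34, -0.03]. Beside Dusp1 these were Errfi1, Dusp4, Dusp6 and Spred3. Errfi1, an inhibitor of the epidermal growth factor receptor, was at 133 and 149 CPM in CO libraries 1 and 2 and 141 to 189 in CO libraries 3 to 6, against 39.3 and 45.5 and 24.5 to 44.5 in the CLCF1 libraries. No library overlapped, and the change was -2.12 ± 0.33 (adjusted p = 0.00062, edgeR; -1.75 in libraries 1 and 2, where it passed). Dusp4 and Dusp6, phosphatases of the same kinases, changed by -0.91 ± 0.18 [-0.94, -0.92] and -0.88 ± 0.21 [-0.92, -0.87].

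Genes that respond to glucocorticoids, the adrenal stress hormones, were lower as well: of 23 tested 8 fell and 2 rose, with a median of -0.99 (-1.04 in libraries 1 and 2). Dusp1, Errfi1 and Per1 count here too. Tsc22d3, which encodes the glucocorticoid-induced leucine zipper, was at 164 and 180.4 CPM in CO libraries 1 and 2 and 153 to 274 in CO libraries 3 to 6, against 98.7 and 62.8 and 37.6 to 92.2 in the CLCF1 libraries. Its libraries did not overlap, NC ranged from 62.5 to 163 CPM, and the change was -1.59 ± 0.27 (adjusted p = 0.0011, edgeR). The transcription factor Cebpb changed by -2.78 ± 0.49 [-1.96, -3.41] and Pdk4, a kinase that restrains pyruvate oxidation, by -2.48 ± 0.47 [-1.63, -3.23]. Pdk4 overlapped in libraries 1 and 2. Fkbp5, a classical target of the glucocorticoid receptor, was at 51.1 and 82.3 CPM (44.6 to 62.5 in libraries 3 to 6) in CO and 51.9 and 61.1 (33.4 to 79.3) in CLCF1. The receptor gene Nr3c1 was at 65.6 and 81 CPM (59.2 to 93.3 in libraries 3 to 6) in CO and 87 and 71.9 (71.4 to 91.4) in CLCF1. Both overlapped, and their differences of -0.08 ± 0.23 and 0.08 ± 0.13 did not pass. Lcn2, an iron-binding acute phase protein, and Sult1a1, a sulfotransferase, rose by 1.73 ± 0.46 [1.54, 1.79] and 0.67 ± 0.21 [0.49, 0.77]. The number that rose was 1 with the library number as a block. It was also 1 in a fit of only the 12 CO and CLCF1 libraries, where 22 were tested. Leaving out any 1 of CO libraries 3, 5 and 6 and CLCF1 libraries 2, 5 and 6 gave 1 as well.

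In the circadian clock list, 8 of 21 fell and 0 rose (median -0.18 [-0.25, -0.15]). Per1 and Per2, repressors of the clock, changed by -1.89 ± 0.46 [-1.58, -2.04] and -1.05 ± 0.18 [-0.68, -1.25]. Nfil3 and Bhlhe40, transcription factors that modulate it, changed by -2.20 ± 0.44 [-1.91, -2.38] and -1.06 ± 0.20 [-0.81, -1.20], without overlap. The core activators Clock and Arntl differed by 0.02 ± 0.20 [0.07, -0.02] and -0.22 ± 0.13 [-0.36, -0.15], and the outputs Dbp and Nr1d1 by 0.22 ± 0.30 [0.30, 0.18] and -0.05 ± 0.14 [-0.19, 0.01], none of which passed. The time of day of sampling is not in the labels.

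Of 30 hypoxia targets tested, 9 fell and 0 rose, with a median of -0.16 over 6 libraries and -0.15 in libraries 1 and 2. Slc2a1, which carries glucose across brain endothelium, was at 137 and 284 CPM in CO libraries 1 and 2 and 170.4 to 234 in CO libraries 3 to 6, against 104 and 95.7 and 76.9 to 111 in the CLCF1 libraries. Every CLCF1 library was below every CO library and the change was -1.12 ± 0.17 (adjusted p = 0.00059, edgeR). Adm, the vasodilator adrenomedullin, was at 8.85 and 13.9 CPM in CO libraries 1 and 2 and 8.94 to 21 in CO libraries 3 to 6, against 3.63 and 4.18 and 0.538 to 5.05 in the CLCF1 libraries, with NC at 1.52 to 3.65 CPM and a change of -2.03 ± 0.38. Vegfa, the vascular growth factor, changed by -0.78 ± 0.15 [-0.61, -0.87], Ndrg1 by -1.21 ± 0.23 [-1.07, -1.28] and Hmox1, the inducible haem oxygenase that itself releases CO, by -0.60 ± 0.16 [-0.56, -0.63]. The glycolytic targets Pgk1, Ldha, Hk2 and Aldoa differed by -0.01 ± 0.11 [-0.08, 0.02], -0.15 ± 0.13 [-0.03, -0.22], -0.17 ± 0.23 [-0.05, -0.24] and 0.11 ± 0.10 [-0.12, 0.22] and did not pass. The list of glycolysis and the citrate cycle held 3 of 29 that fell, and the lists of respiratory chain subunits encoded in the nucleus (27 tested) and of the mitochondrial genome (11 tested) held 0 in either direction with edgeR. At an unadjusted p under 0.05 these held 5 and 2, and DESeq2 called 3 and 1.

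Heat shock genes fell in 7 of 20 cases and rose in 0 (median -0.23 [-0.21, -0.24]). Dnajb1, a cochaperone of Hsp70, was at 120.3 and 135 CPM in CO libraries 1 and 2 and 112 to 154 in CO libraries 3 to 6, against 73.2 and 64.4 and 36 to 64.1 in the CLCF1 libraries. Its libraries did not overlap, and it changed by -1.28 ± 0.15 (adjusted p = 0.00015, edgeR). Hspa1b, an inducible Hsp70, was at 11.3 and 11.1 CPM in CO libraries 1 and 2 and 8.57 to 11.5 in CO libraries 3 to 6, against 0.417 and 2.04 and 0.0543 to 2.48 in the CLCF1 libraries, with NC at 0.0561 to 2.08 CPM and a change of -2.95 ± 0.68. Its near-identical copies can share reads. The cochaperone Bag3 changed by -1.04 ± 0.19 [-1.27, -0.95], and its highest CO value was in library 5. Genes of the unfolded protein and integrated stress responses fell in 8 of 23 cases and rose in 0 (median -0.17 [-0.19, -0.21]). Hspa5 (BiP), the chaperone of the endoplasmic reticulum, was at 486 and 470.3 CPM (438 to 586 in libraries 3 to 6) in CO and 433 and 301 (327 to 357) in CLCF1, a change of -0.52 ± 0.10, and Ppp1r15a, which restarts translation, changed by -1.01 ± 0.17 [-0.88, -1.09]. Ddit3, a proapoptotic factor of this response, changed by -0.45 ± 0.14 [-0.57, -0.40]. The calls of Ddit3, and of Sult1a1 above, were lost without 6 and 6 of the 12 libraries, each left out alone. None of 19 apoptosis regulators passed (edgeR; 2 at an unadjusted p under 0.05, 0 with DESeq2).

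**Figure D3:**
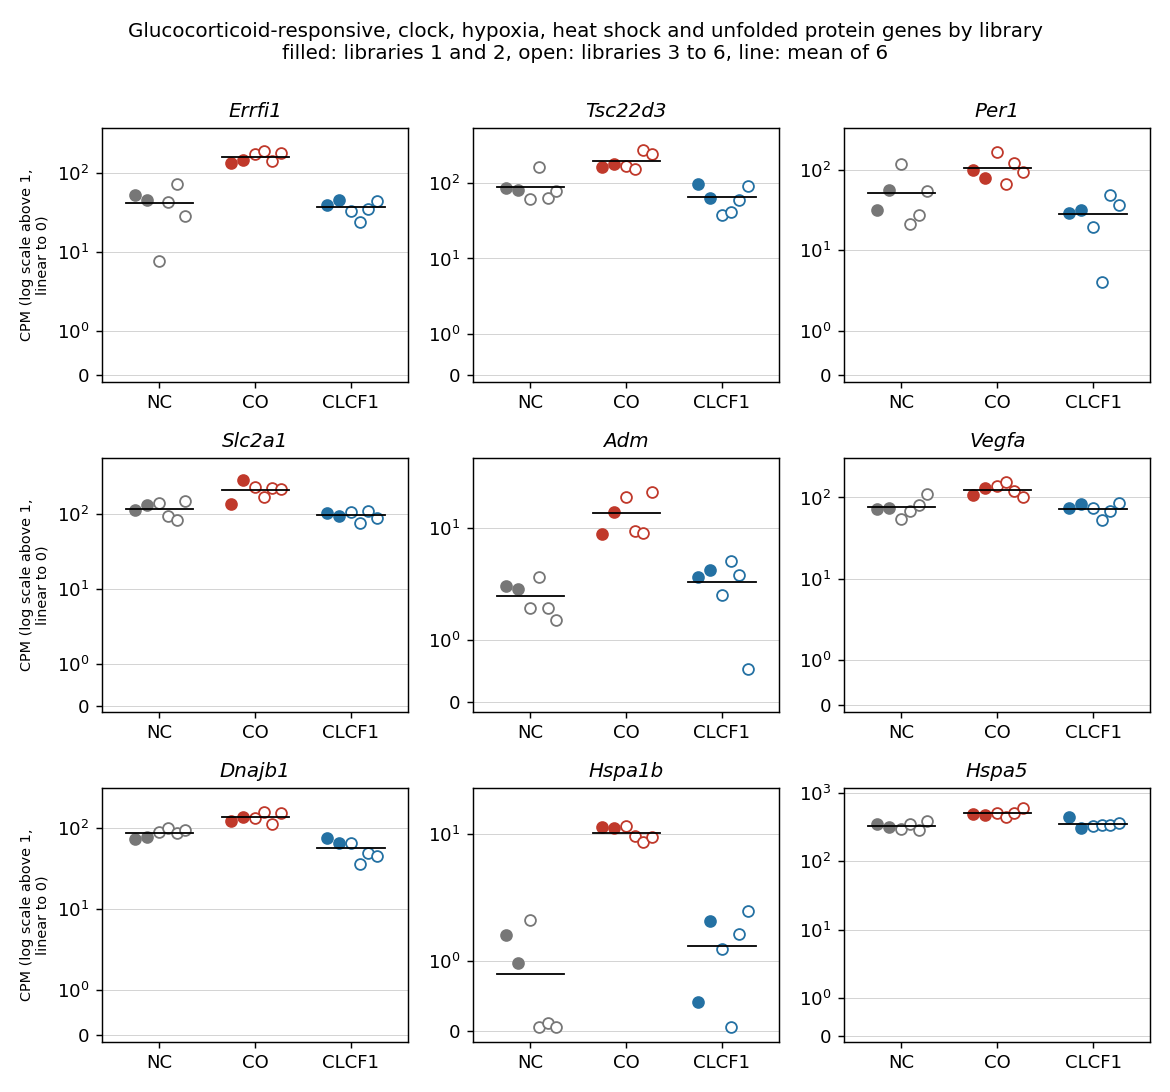
CPM (y axis, log scale above 1) of glucocorticoid-responsive (Errfi1, Tsc22d3), clock (Per1), hypoxia (Slc2a1, Adm, Vegfa), heat shock (Dnajb1, Hspa1b) and unfolded protein (Hspa5) genes in each library (x axis, groups), with the mean as a line. In each of the 9 panels the CLCF1 libraries 1 and 2 lie below CO libraries 1 and 2, and libraries 3 to 6 below CO libraries 3 to 6.

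Cytokines and chemokines moved in both directions: 6 of 19 tested fell and 2 rose, with a median of -0.35 [-0.46, -0.46]. In the CLCF1 libraries Il1b (interleukin 1 beta) had 3 counts over 6 libraries, all in library 1, and Cxcl2, a neutrophil chemokine, had 0. Against 440 and 126 counts in CO, Il1b was 171 times lower (95% counting interval 58.2 to 833) and Cxcl2 at least 49.0-fold lower, the bound taken with 3 group counts instead of 0, and at these values both stay below the list's median. Ccl3, which attracts macrophages, was at 9.51 and 3.03 CPM (2.71 to 9.59 in libraries 3 to 6) in CO and 0.298 and 0.341 (0 to 0.0538) in CLCF1. Ccl4, a related chemokine, was at 14.4 and 5.74 CPM (4.64 to 18.8 in libraries 3 to 6) in CO and 0.775 and 0.195 (0 to 6.78) in CLCF1. Ccl3 did not overlap, while Ccl4 overlapped in libraries 3 to 6. Ccl2, the chief monocyte chemokine, was at 3.11 and 4.19 CPM in CO libraries 1 and 2 and 4.03 to 5.97 in CO libraries 3 to 6, against 1.19 and 1.27 and 0.758 to 1.95 in the CLCF1 libraries, lower in CLCF1 (-1.76 ± 0.47) but above the NC libraries (0 to 0.464 CPM). Ptgs2 (cyclooxygenase 2) changed by -1.21 ± 0.34 [-1.50, -1.07]. Those that rose were Ccl7, by 2.43 ± 0.69 [1.64, 3.22] from 0.305 ± 0.297 CPM in CO (mean ± SD, n = 6), and Cxcl16, by 0.92 ± 0.27 [0.72, 1.01], and both overlapped in libraries 1 and 2 or in libraries 3 to 6. Tnf, below the filter, was at 0.359 and 0 CPM (0.0630 to 0.191 in libraries 3 to 6) in CO and 0 and 0 (0) in CLCF1. Cxcl1, a neutrophil chemokine also below the filter, was at 0.718 and 0.322 CPM (0.445 to 0.826 in libraries 3 to 6) in CO and 0.179 and 0 (0 to 0.0543) in CLCF1. Il6 and Il10 had no count in either group. The calls of Ccl4, Ccl7 and Cxcl16 were each lost when 1 library was left out (CO libraries 1 and 6 and CLCF1 libraries 1, 2, 3 and 5 for Ccl4, CLCF1 library 2 for Ccl7, CO libraries 2 and 6 and CLCF1 library 3 for Cxcl16). In the fit of 12 libraries, which tested 17 of the list, 0 rose. With the block 1 rose, as did 1 of the 16 tested with a stricter filter.

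Of 32 NF-kB pathway genes, 6 fell, 2 rose and 24 did not pass (median -0.02 [-0.04, -0.01]). Nfkbiz, an inducible nuclear cofactor, was at 9.75 and 12.6 CPM in CO libraries 1 and 2 and 8.25 to 13 in CO libraries 3 to 6, against 2.32 and 2.82 and 0.650 to 5.22 in the CLCF1 libraries. It did not overlap and changed by -2.24 ± 0.53 (adjusted p = 0.0081, edgeR). The subunits Nfkb1 and Rel changed by -0.84 ± 0.17 [-0.59, -1.0] and -1.39 ± 0.36 [-1.23, -1.47], the cofactors Bcl3 and Nfkbid by -1.43 ± 0.38 [-1.02, -1.60] and -1.18 ± 0.33 [-1.40, -1.08], and Ikbkg, the scaffold of the IKK complex, by -1.67 ± 0.37 [-1.64, -1.69]. Irak4 and Ripk1, kinases of Toll-like and death receptor signalling, rose by 1.36 ± 0.24 [0.95, 1.60] and 1.24 ± 0.31 [0.86, 1.45]. Nfkbia, the feedback inhibitor, was at 53.7 and 72.2 CPM (76.3 to 134 in libraries 3 to 6) in CO and 22.6 and 26.7 (7.0 to 92.3) in CLCF1 and did not pass (adjusted p = 0.055, edgeR), and the subunit Rela differed by -0.01 ± 0.14 [0.06, -0.05].

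In the inflammasome list, 4 of 14 tested rose, while Il1b, whose precursor inflammasomes cleave, was the one that fell (median 0.47 [0.57, 0.50]). Txnip, which binds the sensor Nlrp3, was at 43.2 and 57.2 CPM in CO libraries 1 and 2 and 15.1 to 48.3 in CO libraries 3 to 6, against 104 and 105 and 85.2 to 132 in the CLCF1 libraries. No library overlapped, and it rose by 1.53 ± 0.24 (adjusted p = 0.00064, edgeR), with NC at 65.6 to 105 CPM. The adaptor Pycard (ASC) was at 2.75 and 1.10 CPM (0.763 to 3.28 in libraries 3 to 6) in CO and 5.24 and 3.84 (4.06 to 6.73) in CLCF1, a rise of 1.53 ± 0.33 without overlap. Nlrp3 and Nlrp1a rose by 1.03 ± 0.32 [0.68, 1.21] and 1.33 ± 0.45 [1.07, 1.49], calls that were lost without 5 and 10 of the 12 libraries, each left out alone, so that 2 rather than 4 of the list rose without CO library 4 or CLCF1 library 2, 3 or 5. Without CO library 5 or 6 or CLCF1 library 1, and with DESeq2, 2 of the list fell.

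**Figure D4:**
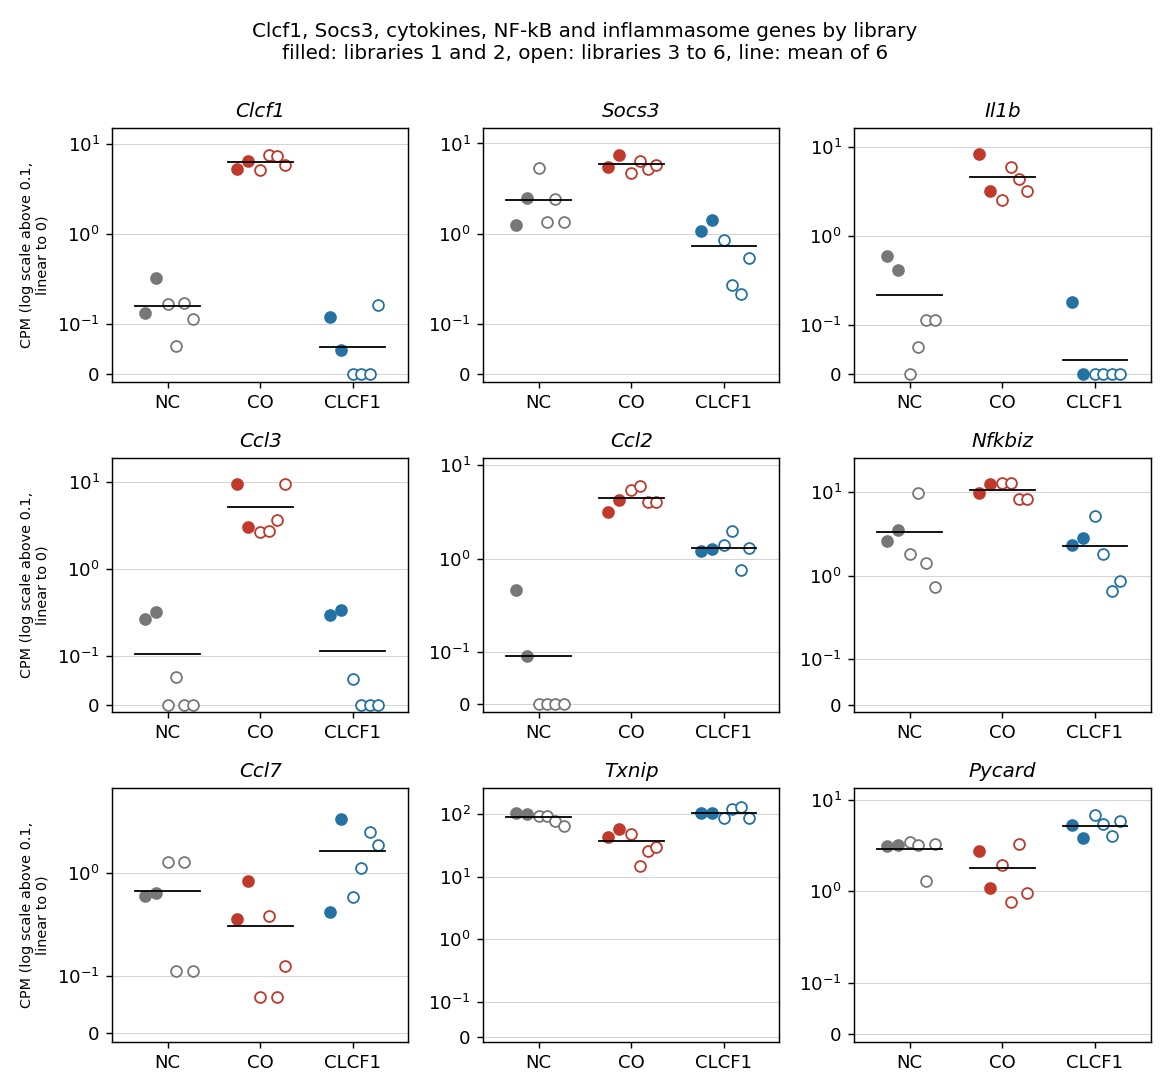
CPM (y axis, log scale above 0.1) of Clcf1, Socs3, 4 cytokine genes, Nfkbiz, Txnip and Pycard in each library (x axis, groups), with the mean as a line. Clcf1, Socs3, Il1b, Ccl3, Ccl2 and Nfkbiz are lower in every CLCF1 library than in every CO library, Txnip and Pycard are higher, and Ccl7 overlaps in libraries 1 and 2.

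Efferocytosis is the uptake of dying cells by phagocytes, through bridging proteins, receptors and engulfment adaptors. Of 35 genes tested 1 rose and 3 fell (2.86% and 8.57%), with a median of 0.04 [0.03, 0.02]. The counts were unstable: 4 rose with the library number as a block and 3 with DESeq2, and 0 fell in the fit of 12 libraries and 1 with a stricter filter. The fit of 12 libraries and the stricter filter each tested 33 of the 35. With 1 library left out, 2 or 3 rose without CO library 3 or 4 or CLCF1 library 1 or 5, and 1 fell without CO library 4. Gulp1, an engulfment adaptor, was at 11.3 and 11.4 CPM in CO libraries 1 and 2 and 6.61 to 11.2 in CO libraries 3 to 6, against 17 and 22.3 and 18.1 to 24.9 in the CLCF1 libraries. All 6 CLCF1 libraries were above all CO libraries, a rise of 1.08 ± 0.19 (adjusted p = 0.0015, edgeR). Pparg, a nuclear receptor that phagocytes use after lipid uptake, was at 0.359 and 0.580 CPM (0.254 to 0.699 in libraries 3 to 6) in CO and 0.238 and 0.0973 (0.0538 to 0.163) in CLCF1, a change of -1.62 ± 0.38 at a low level. The receptor gene Stab2 and the nuclear receptor gene Ppard fell by 2.36 ± 0.69 [-1.58, -3.14] and 0.49 ± 0.16 [-0.59, -0.45], with calls lost without 2 and 8 of the 12 libraries. The receptors Mertk and Axl and the bridging genes Gas6 and Mfge8 differed by -0.41 ± 0.19 [-0.33, -0.46], 0.42 ± 0.18 [0.38, 0.43], 0.10 ± 0.16 [0.22, 0.02] and -0.32 ± 0.19 [-0.37, -0.30] and did not pass.

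Genes of brain and blood macrophages rose in small numbers. Of 20 microglial genes 2 rose (10%, near the 8.63% of all genes) and 0 fell: Gpr34, a lipid receptor, by 0.97 ± 0.25 [1.19, 0.86] and Sall1, which keeps microglial identity, by 0.79 ± 0.22 [0.71, 0.82]. Of 11 tested genes of blood myeloid cells 4 rose and 0 fell, with a median of 0.65 [0.79, 0.67]. Spp1 (osteopontin) was at 5.56 and 3.09 CPM in CO libraries 1 and 2 and 0.0635 to 4.83 in CO libraries 3 to 6, against 8.04 and 87.2 and 24.5 to 106 in the CLCF1 libraries. CLCF1 library 1 stood near CO and library 2 far above it, and the change was 4.51 ± 1.0 (3.42 in libraries 1 and 2). Gpnmb, a glycoprotein of lipid-laden macrophages, was at 13.3 and 12.9 CPM (2.33 to 6.48 in libraries 3 to 6) in CO and 19.5 and 26.1 (19.2 to 39.2) in CLCF1, a rise of 1.79 ± 0.34 without overlap. The monocyte receptor gene Ccr2 had no count in any CO or CLCF1 library, and the summed markers of neutrophils and monocytes were at 1.08 and 1.03 CPM in CO libraries 1 and 2 and 1.43 and 3.07 in CLCF1, with libraries 3 to 6 at 0.189 to 1.02 and 2.11 to 2.71. Of the 5 microglial markers 0 passed, with sums of 209 and 155 CPM in CO libraries 1 and 2 against 182 and 203 in CLCF1, and 166 to 202 against 206 to 242 in libraries 3 to 6. Cd8a, the coreceptor of cytotoxic T cells, was at 0.179 and 0 CPM in CO libraries 1 and 2 and 0 to 0.0635 in CO libraries 3 to 6, against 2.62 and 1.90 and 2.06 to 3.68 in the CLCF1 libraries, a rise of 5.42 ± 0.57 (adjusted p = 6.4e-05, edgeR) without overlap, and the single one of 5 lymphocyte genes tested that passed, and a stricter filter left it out.

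Some genes of antigen presentation, the interferon response and complement rose. Of 8 genes of MHC class II and its processing 3 rose and 0 fell (median 1.03 [0.96, 0.94]), and 5 rose with the library number as a block and with DESeq2. RT1-Bb, a class II beta chain of the rat, was at 4.25 and 2.64 CPM in CO libraries 1 and 2 and 0.953 to 4.92 in CO libraries 3 to 6, against 12.6 and 12.7 and 5.60 to 22.6 in the CLCF1 libraries. Groups did not overlap, the rise was 1.95 ± 0.49, and NC stood at 0.112 to 1.46 CPM. RT1-Da and RT1-Ba, class II alpha chains, rose by 1.30 ± 0.34 [1.16, 1.36] and 2.80 ± 0.74 [2.87, 2.71]. RT1 genes share sequence, so reads may be split among them.
Of 25 interferon response genes 7 rose and 0 fell (median 0.42 [0.43, 0.41]), led by the GTPase genes Ifi47 (1.92 ± 0.42 [1.67, 2.04]), Gbp5 (1.79 ± 0.42 [1.26, 2.12]) and Gbp2 (1.55 ± 0.39 [1.10, 1.79]) and by Usp18 (1.63 ± 0.41 [1.20, 1.81]). When any 1 library was left out, the number that rose ranged from 4 to 9, lowest without CO or CLCF1 library 4, and the calls of Isg15, Oasl and Rsad2 were the ones lost in some of these fits.
Of 18 complement genes 4 rose (22.2%, against 8.63% of all genes tested) and 0 fell (median 0.21 [0.22, 0.19]). C1s, a protease of the classical pathway, was at 11.1 and 9.48 CPM (6.29 to 10.7 in libraries 3 to 6) in CO and 24.6 and 15.9 (16.4 to 19.3) in CLCF1, a rise of 1.05 ± 0.20. The proteases' partner C1r and the receptor chain Itgax rose by 0.92 ± 0.24 [0.85, 0.94] and 1.38 ± 0.31 [1.08, 1.54].

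Choroid plexus genes, of the epithelium that makes cerebrospinal fluid, had the highest values of any list. Of 19 tested 14 rose and 0 fell, with a median of 3.96 over 6 libraries, 3.26 in libraries 1 and 2 and 3.94 in libraries 3 to 6. With any 1 library left out, 13 to 15 rose. The CLCF1 libraries 1 and 2 were unlike each other. Even so, in 9 of the 19 both were above both CO libraries of these numbers, against 16.6% of all genes tested. Ttr (transthyretin), the chief secreted protein of this epithelium, was at 29.4 and 19 CPM in CO libraries 1 and 2 and 0.0630 to 8.45 in CO libraries 3 to 6, against 5703 and 5.40 and 702 to 3724 in the CLCF1 libraries. CLCF1 library 2 was below CO libraries 1 and 2, whereas CLCF1 library 1 was the highest of all 18. The change was 8.13 ± 1.68 (adjusted p = 0.0037, edgeR).

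Kl (Klotho), a coreceptor of fibroblast growth factors, was at 0.419 and 0.451 CPM in CO libraries 1 and 2 and 0 to 0.191 in CO libraries 3 to 6, against 43.6 and 1.12 and 4.68 to 29.4 in the CLCF1 libraries. Clic6, an ion channel protein, was at 2.39 and 1.87 CPM in CO libraries 1 and 2 and 0 to 12.7 in CO libraries 3 to 6, against 94.8 and 3.21 and 19.7 to 69.7 in the CLCF1 libraries. In both, CLCF1 library 1 stood far above library 2, and library 2 was still above CO libraries 1 and 2. Their changes were 6.58 ± 0.94 and 4.06 ± 1.08. The folate receptor Folr1 was at 1.67 and 2.77 CPM (0.127 to 2.77 in libraries 3 to 6) in CO and 41.5 and 0.341 (12.6 to 35.2) in CLCF1, with CLCF1 library 2 below both CO libraries. Aqp1, the water channel of the apical membrane, was at 5.80 and 4.96 CPM in CO libraries 1 and 2 and 0.252 to 3.30 in CO libraries 3 to 6, against 45.6 and 47.5 and 39.9 to 66 in the CLCF1 libraries. It did not overlap and was the one member that passed in libraries 1 and 2 alone with edgeR (DESeq2 called 4 there), with 4.17 ± 0.82 over 6 libraries and 3.10 there, although NC spanned 1.07 to 69.1 CPM. Slc4a5, a bicarbonate transporter, had 0 counts in CO and 888 in CLCF1, at least 254-fold higher when 3 group counts stand for 0, and at that bound it stays above the list's median. These are sums over 6 libraries, in a list whose CLCF1 libraries 1 and 2 were unlike each other, so the bound does not hold for each library. The 5 choroid plexus markers summed to 39.9 and 29.1 CPM in CO libraries 1 and 2 (libraries 3 to 6 0.882 to 24) and 5870 and 62.4 in CLCF1 (801 to 3830), and NC ranged from 6.84 to 218. How much plexus each piece of tissue held was not tested.

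**Figure D5:**
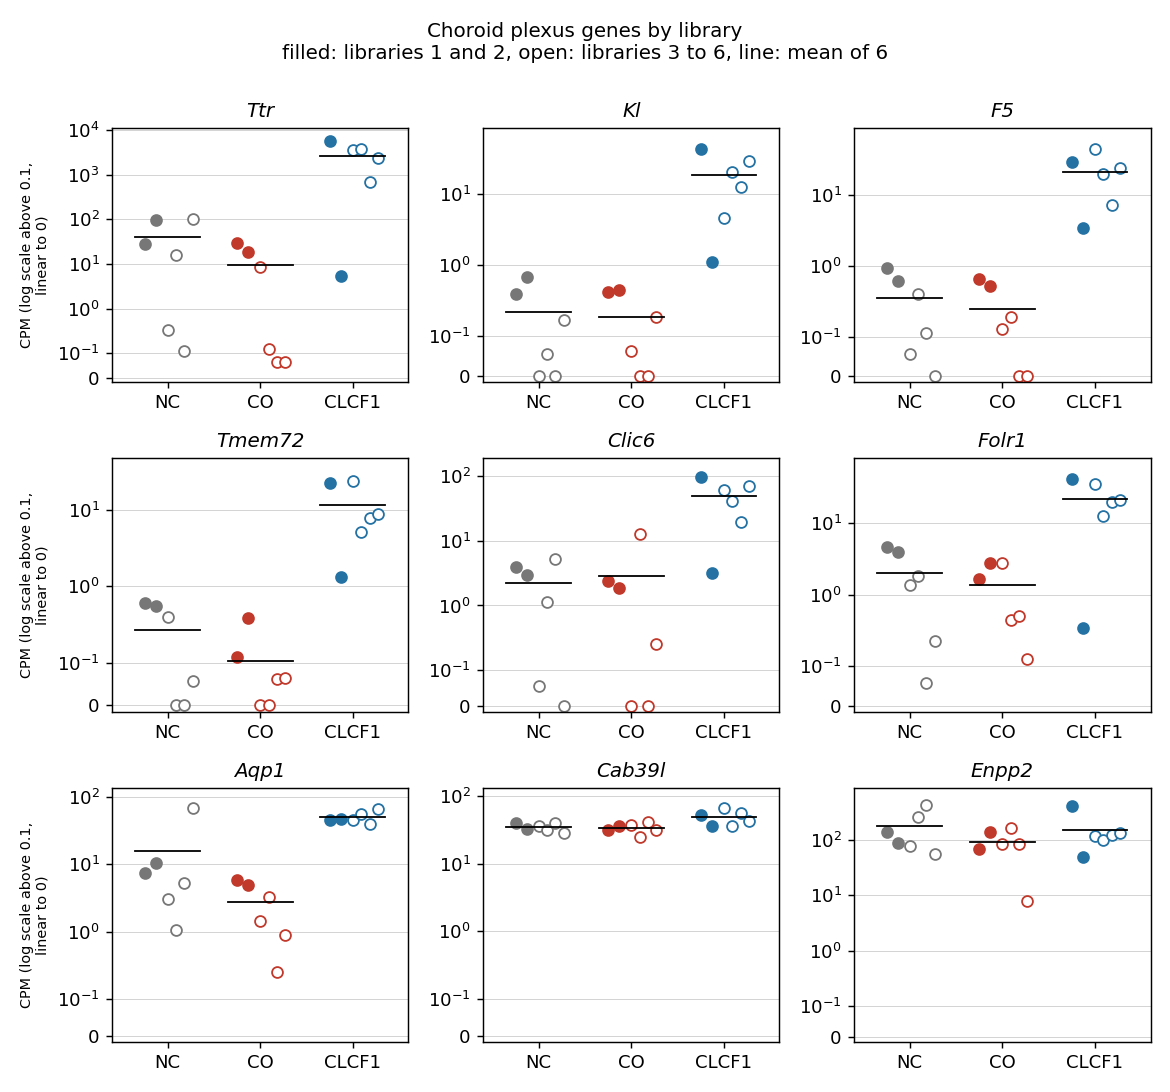
CPM (y axis, log scale above 0.1) of 9 choroid plexus genes in each library (x axis, groups), with the mean as a line. CLCF1 library 1 and libraries 3 to 6 are high and CLCF1 library 2 is near the CO libraries in Ttr, Kl, Clic6 and Folr1, while Aqp1 is high in all 6 CLCF1 libraries and Enpp2 overlaps.

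Fibroblast and meningeal genes rose in 6 of 23 cases and fell in 0 (median 0.51 [0.69, 0.34]), and in libraries 1 and 2 all 23 had a fitted change above 0. Dcn (decorin), a matrix proteoglycan, was at 20.3 and 21.1 CPM in CO libraries 1 and 2 and 11.2 to 15.2 in CO libraries 3 to 6, against 30.3 and 40.7 and 26.2 to 40.3 in the CLCF1 libraries. No library overlapped and it rose by 1.10 ± 0.18 (adjusted p = 0.00089, edgeR), with NC at 29.6 to 45.8 CPM. Igfbp2, a carrier of insulin-like growth factors, and Foxc1, a transcription factor of the meninges, rose by 2.01 ± 0.39 [1.36, 2.42] and 1.04 ± 0.21 [0.89, 1.13]. The summed fibroblast markers were at 175 and 148 CPM in CO libraries 1 and 2 and 216 and 361 in CLCF1, with libraries 3 to 6 at 99.2 to 326 and 224 to 364, and 2 of 5 rose. In the list of collagens and matrix 4 of 23 rose and 2 fell (median 0.06 [0.17, 0.06]). There 1 rose without CO library 5 or 6, 2 without CO library 1 or CLCF1 library 2, 3, 5 or 6, and 2 in the fit of 12 libraries, and 1 fell without CO library 2, 3 or 5 or CLCF1 library 1, 3, 5 or 6. Thbs2, an antiangiogenic matrix protein, rose by 1.29 ± 0.24 [1.13, 1.39].

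Endothelial genes split evenly, with 5 of 22 higher and 5 lower (median 0.11 [0.15, 0.05]). Those that fell were Slc2a1, Klf2, Klf4, Sox17 and Mfsd2a, and those that rose Ocln, Plvap, Vwf, Tie1 and Abcb1a. The calls of Mfsd2a and Abcb1a were lost without 5 and 9 of the 12 libraries, each left out alone. Klf2 and Klf4 are transcription factors induced by blood flow and also stand in the list of immediate early genes, with changes of -0.96 ± 0.18 [-0.76, -1.08] and -0.86 ± 0.23 [-1.18, -0.71]. Ocln (occludin), a tight junction protein, was at 5.56 and 6.90 CPM (2.42 to 13.3 in libraries 3 to 6) in CO and 16.3 and 12.9 (14.2 to 17.7) in CLCF1, a rise of 1.27 ± 0.30, and Plvap, a marker of fenestrated vessels, rose by 1.75 ± 0.42 [1.12, 2.25]. The endothelial marker Cldn5 had no count in any CO or CLCF1 library, and 0 of the other 3 endothelial markers tested passed. Haemoglobin genes Hba1 and Hba2 rose by 3.06 ± 0.78 [1.88, 4.68] and 3.06 ± 0.73 [2.02, 4.40], and the 5 red blood cell markers summed to 53.8 and 45.1 CPM in CO libraries 1 and 2, 5.36 to 13.2 in CO libraries 3 to 6, 102 and 272 in CLCF1 libraries 1 and 2 and 130 to 253 in CLCF1 libraries 3 to 6. In NC these markers summed to 18.4 to 832 CPM, a span that holds every CLCF1 library. Of 6 red blood cell genes tested 2 rose and 0 fell, with a median of 1.94 [1.52, 0.19]. The part of residual blood in the other results was not tested. The 2 haemoglobin genes are near-identical copies.

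Proliferation genes rose in 5 of 14 cases and fell in 0 (median 0.62), with the same median to 2 decimals in libraries 1 and 2 as over 6, 0.62. Cenpf, a centromere protein of dividing cells, was at 0.359 and 0.516 CPM in CO libraries 1 and 2 and 0.0630 to 0.315 in CO libraries 3 to 6, against 1.79 and 2.43 and 1.30 to 4.68 in the CLCF1 libraries. It did not overlap and rose by 3.28 ± 0.50 (adjusted p = 0.00062, edgeR). Top2a, the topoisomerase of replicating cells, was at 3.83 and 3.35 CPM (0.254 to 7.75 in libraries 3 to 6) in CO and 9.18 and 7.35 (9.58 to 25.6) in CLCF1, a rise of 1.93 ± 0.53. Bub1, Mcm5 and Cdk1, of the spindle checkpoint, replication and mitotic entry, rose by 1.90 ± 0.42 [1.47, 2.13], 1.76 ± 0.45 [1.40, 2.02] and 1.39 ± 0.39 [1.12, 1.54].

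Some myelin and sterol genes fell. All 20 oligodendrocyte and myelin genes had a fitted change below 0 and 5 fell (median -0.48 [-0.39, -0.51]). In libraries 1 and 2, only 1 of the 20 did not overlap and was lower in CLCF1, against 14% of all genes tested. Mag, an adhesion protein of the myelin sheath, was at 172 and 352 CPM in CO libraries 1 and 2 and 254 to 331 in CO libraries 3 to 6, against 212 and 109 and 108 to 141 in the CLCF1 libraries. CO library 1 was below CLCF1 library 1, whereas CO libraries 2 to 6 were above every CLCF1 library, and the change was -1.0 ± 0.19. The summed oligodendrocyte markers were at 9570 and 19500 CPM in CO libraries 1 and 2 and 13200 and 7490 in CLCF1, with libraries 3 to 6 at 12600 to 17100 and 6990 to 16100, so that the groups overlapped. Olig2, a transcription factor of the lineage, did not overlap in libraries 1 and 2 or in libraries 3 to 6 and changed by -0.76 ± 0.18 [-1.05, -0.62]. Of 20 cholesterol synthesis genes 8 fell and 0 rose, all 20 had a fitted change below 0 also in libraries 1 and 2, and the median was -0.37 [-0.31, -0.42]. Idi1, an isomerase of the pathway, was at 73.9 and 78.9 CPM (71.2 to 86.9 in libraries 3 to 6) in CO and 67.6 and 53.4 (54.2 to 63.1) in CLCF1, a change of -0.39 ± 0.10, and all 6 CLCF1 libraries were below all 6 CO libraries. With any 1 library left out, 5 to 10 of the list fell, fewest without CLCF1 library 2, and of the myelin list 3 to 6, fewest without CO library 2 or 5 or CLCF1 library 2 or 4.

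Astrocyte genes showed little change, 2 of 20 lower and 0 higher (median 0.04 [0.07, 0.05]), although DESeq2 called 2 higher. Agt (angiotensinogen) was at 274 and 136 CPM (90.6 to 250.2 in libraries 3 to 6) in CO and 83.6 and 101 (23.6 to 83.8) in CLCF1, a change of -1.58 ± 0.42. In the list of reactive astrocyte genes 4 rose and 3 fell of 21 (median 0.25 [0.22, 0.22]). Vim, an intermediate filament, rose by 0.64 ± 0.18 [0.62, 0.65], and S1pr3, a receptor of sphingosine 1-phosphate, was at 6.70 and 7.41 CPM (2.61 to 5.04 in libraries 3 to 6) in CO and 9.89 and 42.7 (12.9 to 76.4) in CLCF1, a rise of 2.58 ± 0.61 in which CLCF1 library 2 stood well above library 1. Clcf1 itself is one of the 3 that fell.

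Among neuronal lists the striatal one was lowest: all 15 genes tested had a fitted change below 0, also in libraries 1 and 2, with a median of -0.89 [-0.79, -0.94], and 3 fell. Rasd2 (Rhes), a small GTPase enriched in striatum, was at 259 and 342 CPM in CO libraries 1 and 2 and 188 to 609 in CO libraries 3 to 6, against 213 and 147 and 104 to 177 in the CLCF1 libraries. Groups did not overlap within libraries 1 and 2 or within libraries 3 to 6, and the change was -1.38 ± 0.31 (adjusted p = 0.0055, edgeR). Drd2 and Six3 fell too, with calls lost without 9 and 5 of the 12 libraries, and with any 1 library left out 1 to 5 of the list fell, 1 without CO library 1 or CLCF1 library 3 or 6 and 5 without CLCF1 library 1 (5 also with DESeq2). Lhx8, a transcription factor of forebrain cholinergic neurons, was among the 12 largest falls, at 5.32 and 2.58 CPM (1.02 to 20.1 in libraries 3 to 6) in CO and 0.358 and 0 (0 to 0.217) in CLCF1. No CLCF1 library overlapped a CO library, and the change was -5.96 ± 1.10. The share of striatum in each piece of tissue was not tested. Of 21 pan-neuronal genes 4 fell and 1 rose (median -0.24 [-0.17, -0.26]), the rise lost without CLCF1 library 3 and in the fit of 12 libraries. Thy1, a surface glycoprotein, was at 1023 and 1019.6 CPM (930.2 to 1298 in libraries 3 to 6) in CO and 842 and 667 (615 to 831) in CLCF1 and fell by 0.58 ± 0.11, and Nefm, a neurofilament, by 1.22 ± 0.28 [-0.78, -1.44]. The lists of the glutamate synapse, GABA neurons and cortical projection neurons held 1, 1 and 0 that rose and 2, 3 and 3 that fell, of 23, 20 and 17. The shares that rose were 4.35%, 5% and 0%, against 8.63% of all genes tested. Those that fell were 8.7%, 15% and 17.6%, against 8.34%. The falls of the glutamate list were 4 with the library number as a block. In the GABA list 1 fell without CLCF1 library 2 or 5, and 0 rose without any 1 of CO libraries 2, 3 and 5 and CLCF1 libraries 2, 4 and 5. The medians were -0.20 [-0.18, -0.11], 0.03 [-0.04, -0.10] and -0.15 [-0.11, -0.07]. The lists of hippocampal neurons and of cytoplasmic ribosomal proteins held 0 that passed of 9 and 29 tested (edgeR; 1 and 5 at an unadjusted p under 0.05, 0 and 2 with DESeq2).

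Other genes were named only for the size of their change. The largest rises included Tbx21 (T-bet), the transcription factor of type 1 lymphocytes, at 0.419 and 0.193 CPM in CO libraries 1 and 2 and 0 in CO libraries 3 to 6, against 0.894 and 18.4 and 7.86 to 15.7 in the CLCF1 libraries. The groups did not overlap, but CLCF1 library 2 and libraries 3 to 6 were high while library 1 was low. Its change was 6.64 ± 0.91. Fam111a, a protease gene of antiviral defence, followed the same order, at 0.598 and 0.322 CPM (0 in libraries 3 to 6) in CO and 1.01 and 43.8 (14.3 to 45.2) in CLCF1, and NC spanned 1.20 to 25.9 CPM. Hprt1, of purine salvage, was at 0.299 and 0.838 CPM (0 to 0.127 in libraries 3 to 6) in CO and 13.3 and 1.17 (2.26 to 7.75) in CLCF1, with NC at 0.331 to 34.2. Car3, a carbonic anhydrase, changed by 5.12 ± 1.30 [4.50, 5.54], with CLCF1 library 1 close to CO library 1.

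Among the largest falls, Mc4r, the melanocortin receptor that restrains feeding, was at 6.88 and 5.22 CPM in CO libraries 1 and 2 and 4.07 to 7.56 in CO libraries 3 to 6, against 0.953 and 0.195 and 0.0538 to 0.323 in the CLCF1 libraries. It did not overlap and changed by -4.36 ± 0.52 (adjusted p = 0.00016, edgeR). Fam131a was at 62.6 and 68.5 CPM in CO libraries 1 and 2 and 47.7 to 113 in CO libraries 3 to 6, against 6.73 and 8.42 and 0.861 to 8.23 in the CLCF1 libraries, with NC at 0 to 2.98 CPM, and passed in libraries 1 and 2 alone (-3.12; -3.82 ± 0.61 over 6). Rbm39, a splicing factor, was at 10.6 and 6.32 CPM (3.97 to 7.75 in libraries 3 to 6) in CO and 0.894 and 0.827 (0.162 to 0.592) in CLCF1, a change of -3.87 ± 0.60. Amy2a3, a pancreatic amylase with near-identical copies, was at 137 and 2.90 CPM (19.1 to 49.9 in libraries 3 to 6) in CO and 0.953 and 0 (0 to 0.0543) in CLCF1, with CO library 1 the highest.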

How the data were processed

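RNA-seq libraries of rat brain, 6 each for NC, CO and CLCF1, were made from mRNA with a SMARTER kit, per the labels. The authors deposited 1 table of raw read counts per gene. Which aligner and counter were used, and whether strand was kept, is not given in the sources used here, so reads of overlapping genes cannot be told apart, and the submitters' processing notes name GRCm38 and mm10, builds of mouse, while the gene IDs are of rat. Positions are printed as the table gives them, without a build.

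Counts of all 18 libraries were fitted once with edgeR 4.0.16 (R 4.3.3; TMM, filterByExpr, robust quasi-likelihood test), with CLCF1 minus CO as the contrast and Benjamini-Hochberg adjustment over all 16581 genes tested, at 0.05. Changes are log2 fold changes ± SE over 6 libraries a group. Counting intervals are exact 95% intervals that cover counting error only. The same test was also run on counts simulated with the spread estimated from the fit of these data, and the outcome is not reported here. Other settings tried were a block for library number, other scalings and filters, DESeq2 1.42.0, 12 libraries only, libraries 1 and 2 or 3 to 6 alone, and each library left out. DESeq2 on libraries 1 and 2 was added after seeing the data. The members, 48 gene lists (958 symbols) and rules were chosen with earlier results of these data known. The rule named Clcf1 and its receptor genes, the 12 largest rises and falls among genes that passed without overlap, and up to 5 passing members of each list by p. It also named genes with a symbol that passed over 6 libraries and in libraries 1 and 2 alone. The 49 other list members named, and LOC100911372, were chosen after their values were seen. A few genes the rule named, or lists hold, are not reported here by name. Lists are described by counts and medians, without a set test. The CO libraries also serve the comparison with NC, which is shown as values only.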

Additional observations from a re-analysis of the deposited data

Results flagged for a closer look

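Each gene named or chosen by the rule, apart from those not reported here, has 6 CO and 6 CLCF1 values, and in 44 of 436 such groups of 6 the highest or lowest library stood apart from the other 5 by Dixon's test at the 95% level. Chance marks about 1 in 20 groups only if the 6 values are independent and normally distributed. Neither was tested, and some groups lie mostly at 0, so the number marked is not read as an excess. Values are CPM, with the range of the other libraries of the group after each value. CLCF1 library 1 was the highest of its group for Amy2a3 (0.953 in place of 0 to 0.0543), Enpp2 (400 in place of 48.5 to 135), Il1b (0.179 in place of 0) and Mag (212 in place of 108 to 141). The same library was highest for Mc4r (0.953 in place of 0.0538 to 0.323) and Oxt (4.53 in place of 0.0543 to 0.915). CLCF1 library 2 was the highest of its group for Pdk4 (5.5 in place of 0.7 to 1.84). CLCF1 library 3 was the highest of its group for Aldh1a2 (102 in place of 37.9 to 61.8), Cxcl16 (39.2 in place of 14.3 to 21.1) and Fosb (68.2 in place of 0.0538 to 15.3). CLCF1 library 4 was the highest of its group for Spred3 (9.01 in place of 3.39 to 5.07). It was also the lowest for Egr2 (0.922 in place of 2.68 to 3.52). CLCF1 library 5 was the highest of its group for Atf3 (6.93 in place of 0.38 to 2.58), Btg2 (58.7 in place of 16 to 21) and Nfkbia (92.3 in place of 7 to 26.7). The same library was lowest for Hmox1 (6.82 in place of 9.15 to 10.4). CLCF1 library 6 was the highest of its group for Ccl4 (6.78 in place of 0 to 0.775), Cenpf (4.68 in place of 1.3 to 2.43), Jun (181 in place of 35.8 to 86.9) and Junb (321 in place of 28.9 to 126). It was also the highest for Klf4 (22.7 in place of 6.78 to 11.1) and Pomc (18.5 in place of 0.161 to 5.89). CO library 1 was the highest of its group for Amy2a3 (137 in place of 2.9 to 49.9), Cd8a (0.179 in place of 0 to 0.0635) and Pifo (1.79 in place of 0.763 to 0.967). CO library 2 was the highest of its group for Abcb1a (44.1 in place of 21.6 to 26.6), Gnb2l1 (0.709 in place of 0 to 0.127), Hprt1 (0.838 in place of 0 to 0.299) and Olig2 (79 in place of 48.3 to 59.5). The same library was highest for Slc6a3 (0.322 in place of 0 to 0.0598) and Tmem72 (0.387 in place of 0 to 0.12). It was also the lowest for Fosl2 (8.64 in place of 12.5 to 14.5). CO library 3 was the highest of its group for Col11a1 (20.7 in place of 1.07 to 7.54), Fezf2 (45.2 in place of 27.7 to 31.8) and Per2 (69.8 in place of 30.4 to 41.3). CO library 4 was the highest of its group for Clic6 (12.7 in place of 0 to 2.39) and Lifr (25 in place of 3.05 to 6.96). CO library 5 was the highest of its group for Bag3 (43.6 in place of 23.2 to 29.1), Eno2 (277 in place of 11.8 to 89.3), Gabrd (124 in place of 74.9 to 91.3) and Gadd45b (62.7 in place of 22.2 to 35.8). The same library was highest for Lcn2 (2.27 in place of 0.381 to 1.08), Lhx8 (20.1 in place of 1.02 to 5.32) and Nr4a2 (147 in place of 49 to 82.4). Of these genes, Ccl4 lost its call without any 1 of CO libraries 1 and 6 and CLCF1 libraries 1, 2, 3 and 5, and its fitted change became -5.35 without CLCF1 library 6. Cxcl16 lost its call without CLCF1 library 3, and also without CO library 2 or 6. What set these libraries apart was not tested.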

How the results depend on the processing

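Genes higher and lower in CLCF1 numbered 1431 and 1383. Counts moved by over 1.5 times with no filter on low counts (2885 and 2760), with libraries 1 and 2 alone (2 and 6; 34 and 70 with DESeq2), with libraries 3 to 6 alone (770 and 666) and, for genes changed at least 2-fold, 925 and 543. They stayed within that range with the other settings: DESeq2 size factors (1400 and 1422), library size alone (1542 and 1259), a stricter filter (1177 and 1127), DESeq2 (1773 and 1799) and only 12 libraries (1018 and 1078). With any 1 library left out the counts ranged from 1173 to 1456 and from 1220 to 1577. With the library number as a block they were 1431 and 1356. Library numbers were not taken as pairs, because they are not stated to pair animals. Deviations of same-numbered CO and CLCF1 libraries correlated at -0.018 to 0.18. The libraries numbered 1, 2 and 3 correlated best with their own number, 3 of 6, which does not settle whether the numbers pair. The Clcf1 change of -6.67 was -6.72 with the block, -7.08 in libraries 3 to 6, and -7.30 to -6.44 with any 1 library left out, and it did not pass in libraries 1 and 2 alone (-6.05), where fewer libraries were fitted.
Of 222 other genes named or chosen by the rule, 190 no longer passed in libraries 1 and 2 alone, 78 in libraries 3 to 6 alone, 24 in the fit of 12 libraries and 9 with the block, all with their direction kept. Of the 197 of these that passed over 6 libraries, Abcb1a alone changed direction under these settings, to -0.0263 in libraries 1 and 2. The fit of 12 libraries tested 190 of the 197 and the stricter filter 188, so the others have no result there. With any 1 library left out, 233 of the 2364 fits of these 197 lost the call and 0 changed direction. Among the 25 that did not pass, 10 changed direction in some of those fits, 4 in libraries 1 and 2 (Aldoa, Btg2, Lifr and Rela) and 4 in libraries 3 to 6. No scaling moved the median of all genes by more than 0.028. Total counts of 15.5 to 20.0 M in CO and CLCF1 leave genes with a few counts, such as Il1b and Slc4a5 in their lower group, with wide intervals or a bound only.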

Other observations

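Genes of ependyma and motile cilia, the lining of the ventricles, rose in 3 of 19 cases and fell in 0. The share that rose was 15.8%, against 8.63% of all genes tested. The median was 0.28 [0.66, 0.01], and 1 rose in the fit of 12 libraries, where 17 were tested. Pifo, of the ciliary base, was at 1.79 and 0.967 CPM (0.763 to 0.953 in libraries 3 to 6) in CO and 4.59 and 1.75 (2.48 to 7.16) in CLCF1, a change of 1.84 ± 0.35 in which libraries 1 and 2 overlapped. In the list of haem, iron and NRF2 genes, 2 of 22 rose and 2 fell (median -0.02 [0.04, -0.08]). These shares, 9.09% each, were near the 8.63% and 8.34% of all genes tested. Each count was 1 without any 1 of 7 libraries for the rises and 5 for the falls. Slc7a11, the cystine transporter that feeds glutathione synthesis, was at 62.2 and 78.2 CPM in CO libraries 1 and 2 and 19.6 to 92.4 in CO libraries 3 to 6, against 102 and 177 and 98.4 to 207 in the CLCF1 libraries. Its change was 1.47 ± 0.40 (adjusted p = 0.018, edgeR), and Hmox1 is among those that fell. Pf4, a chemokine of border macrophages and platelets, was at 2.51 and 1.16 CPM (0.127 to 1.45 in libraries 3 to 6) in CO and 1.25 and 8.22 (1.52 to 8.67) in CLCF1, a change of 2.23 ± 0.59.

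Genes of small brain nuclei differed between libraries of 1 group. Of 11 hypothalamic genes tested 3 rose and 2 fell (median 0.13 [-0.08, 0.24]). With a stricter filter, where 9 were tested, or without CO or CLCF1 library 4 or 6, 1 rose. The calls of Trh and Hcrt were lost without 9 and 10 of the 12 libraries, each left out alone. Hdc, which makes histamine, was at 0.359 and 0.258 CPM (0.0630 to 0.508 in libraries 3 to 6) in CO and 1.37 and 0.779 (0.812 to 1.14) in CLCF1, a change of 1.91 ± 0.36. Oxt (oxytocin) was at 126 and 0 CPM (40.0 to 80.4 in libraries 3 to 6) in CO and 4.53 and 0.681 (0.0543 to 0.915) in CLCF1 and Pomc, the precursor of melanocortins, at 45.7 and 4.64 CPM (22.9 to 52.8 in libraries 3 to 6) in CO and 5.84 and 5.89 (0.162 to 18.5) in CLCF1, with changes of -5.73 ± 1.02 and -2.55 ± 0.71. For these genes the NC libraries alone spanned 0.792 to 1.80, 0 to 0.695 and 3.11 to 10.4 CPM. Slc6a3, the dopamine transporter, was at 0.0598 and 0.322 CPM (0 in libraries 3 to 6) in CO and 0 and 3.80 (0 to 3.79) in CLCF1 and rose by 4.72 ± 1.31, and libraries 1 and 2 overlapped. Grm2, a presynaptic glutamate receptor, was at 46.9 and 34.8 CPM (20.4 to 44.2 in libraries 3 to 6) in CO and 48.7 and 54.7 (49 to 72.3) in CLCF1, a rise of 0.71 ± 0.19. The brain region in each library is not in the labels.

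LOC100911372, a locus with no name in the table, was 1 of 2 genes called higher in libraries 1 and 2 alone. It was at 11.7 and 11.6 CPM in CO libraries 1 and 2 and 1.21 to 8.01 in CO libraries 3 to 6, against 62.7 and 52.8 and 28.3 to 120 in the CLCF1 libraries, without overlap. Its change was 2.30 in libraries 1 and 2 (adjusted p = 0.017, edgeR) and 3.18 over 6 libraries.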
